A study of Mus musculus with 32 samples.

Results

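Cortical neurons exposed to Mut.oligo for 5 d were compared with untreated cortical neurons of the same time point, 4 libraries against 4, or 8 of the 32 libraries sequenced. The libraries were chosen by their deposited labels alone. All cells came from wild-type (WT) C57BL/6 mice, were prepared from the forebrain at embryonic day 17 to 18, and were kept in a neuron-supporting medium. Mut.oligo is a synthetic oligoribonucleotide, a let-7b sequence with mutated bases, and was given to the medium at 10 µg/mL, whereas the untreated cells received no oligoribonucleotide. The study used it as a control for sequence specificity in experiments with miR-92a-1-5p and with another miRNA, miR-124-5p, which were given at the same dose and are drawn on here only to set them against Mut.oligo. The comparison asks which transcripts differ after exposure to this control RNA. Untreated cells are its only reference, so an effect of Mut.oligo cannot be told apart from one of extracellular RNA in general.

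Each label also names an experiment batch. Untreated and Mut.oligo libraries shared 3 batches, those of replicate numbers 1, 2, and 4. Untreated replicate 3 was alone in its batch, and Mut.oligo replicate 3 shared its batch with libraries of both miRNAs but with no untreated one. Thus, in a fit with the batch as a covariate untreated replicate 3 adds nothing to the comparison, and Mut.oligo replicate 3 enters only by way of the other oligoribonucleotides. Counts over all genes and over gene lists are therefore mostly given without and with the batch. For many single genes only 1 fit is shown, mostly the one with the batch.

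Let-7 is a family of miRNAs that, inside cells and loaded onto Argonaute proteins, pair through their seed, bases 2 to 8, with sites in the 3′ UTRs of mRNAs and lower these mRNAs. Outside cells, single-stranded RNA, let-7b included, can be sensed by Toll-like receptor 7 in the endosome. The methods print a sequence for Mut.oligo whose bases 2 to 8 read as those of let-7b, without speaking of a seed. That sequence is not shown here. The mature mouse let-7b-5p is shown for orientation, with the seed in capitals; it has 22 bases and lies at chr15:85707325-85707346 on the plus strand (RefSeq, GRCm38.p6).
mmu-let-7b-5p: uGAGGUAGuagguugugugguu

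Cultures of cortical neurons are not free of other cells. Dividing progenitors and glial cells persist, and oligodendrocyte precursor cells (OPCs), which carry the receptor PDGFRα and the transcription factors OLIG1, OLIG2, and SOX10, divide in response to platelet-derived growth factor. Neuronal markers were abundant in all 8 libraries: Map2, coding for a dendritic microtubule protein, lay between 1852 and 2387 CPM (counts scaled to library size) in untreated and between 1892 and 2613 CPM in Mut.oligo libraries. Markers of other cells were present at lower levels than Map2, but not lower than every neuronal marker. The astrocyte gene Slc1a3 lay between 715 and 1073 CPM in untreated libraries, above the neuronal gene Snap25 at 382 to 415 CPM. Pdgfra reached 24.8 CPM or more in untreated libraries, the astrocyte gene Gfap ranged from 54.3 to 501 CPM, whereas the endothelial gene Cldn5 did not exceed 0.134 CPM and the myelin gene Mog did not exceed 0.0165 CPM in untreated libraries. In these bulk libraries, fewer cells of a type and less RNA per cell cannot be told apart.

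The 8 libraries held 49720829 to 60520413 counts, so that 3 counts correspond to 0.0496 to 0.0603 CPM, a floor for counting error only. CPM values are TMM-scaled, and each fold change is a log2 ratio of Mut.oligo to untreated with its standard error. To be called deregulated, a gene needed a log2 fold change beyond 0.5 in either direction and, after Benjamini-Hochberg adjustment, a p under 0.05 in edgeR's quasi-likelihood test over all 16 libraries of 5 d. Of 19333 genes tested, 0 were called lower and 0 higher without a covariate, the smallest adjusted p being 0.204; at an unadjusted p under 0.05, 382 genes (1.98%) were lower and 157 (0.812%) higher. With the batch as a covariate, 9 genes (0.0466%) were called, all lower in Mut.oligo-exposed neurons, and 0 were called higher; at an unadjusted p under 0.05, 545 (2.82%) were lower and 267 (1.38%) higher. In both fits at once, 257 (1.33%) passed this unadjusted limit lower and 85 (0.44%) higher. The median standard error of a log2 fold change was 0.141 without and 0.102 with the batch. DESeq2, the tool of the study, called 3 genes (0.0155%) lower and 0 higher without and 17 (0.0879%) lower and 0 higher with the batch; at an unadjusted p under 0.05 it had 395 (2.04%) lower and 165 (0.853%) higher without and 385 (1.99%) lower and 143 (0.74%) higher with the batch. The 9 genes were Kdr, Pdgfra, Tagln, Ccnd1, Kif23, Dlgap5, Col4a6, Ccn1, and Pclaf, and the 17 genes included all 9 of them.

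**Figure D1:**
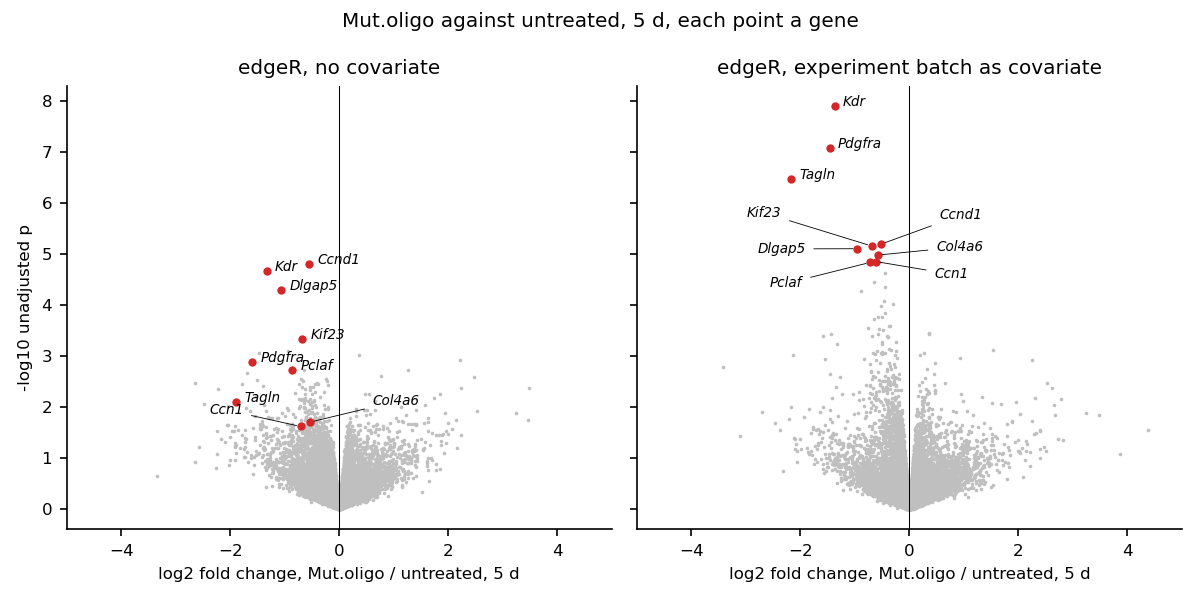
Log2 fold change of Mut.oligo to untreated at 5 d (x axis) against −log10 of the unadjusted p (y axis) for 19333 genes, without a covariate (left) and with the experiment batch (right). The 9 genes called with the batch are red; all lie on the left of 0 in both panels, and Kdr, Pdgfra, and Tagln stand above the rest with the batch.

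Pdgfra, the receptor for platelet-derived growth factor that marks OPCs, lay at 30.1, 36.4, 33.2, and 24.8 CPM in untreated replicates 1 to 4 and at 9.43, 14.6, 6.98, and 10.02 CPM in Mut.oligo replicates 1 to 4. The highest Mut.oligo library thus stayed well under the lowest untreated one. The log2 fold change was -1.60 ± 0.42 without a covariate (adjusted p = 0.999, edgeR) and -1.47 ± 0.13 with the batch (adjusted p = 0.000821), and the differences within the 3 shared batches were -1.67, -1.31, and -1.31. Pdgfra lies at chr5:75152292-75198215 on the plus strand (GRCm38), with the miRNA gene Mir7025 inside its span.

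Kdr, which codes for VEGF receptor 2 and lies downstream of Pdgfra on the same chromosome (chr5:75932827-75978458, minus strand), was at 8.65, 3.93, 5.48, and 5.23 CPM in untreated and at 3.16, 1.66, 2.36, and 2.11 CPM in Mut.oligo libraries. Again the groups did not overlap, and in each shared batch the Mut.oligo library was lower. The log2 fold change was -1.33 ± 0.23 without (adjusted p = 0.204) and -1.37 ± 0.11 with the batch (adjusted p = 0.000243), and the within-batch differences were -1.44, -1.23, and -1.31. Kdr is best known from endothelial cells. Of 16 tested endothelial genes, only Kdr had an unadjusted p under 0.05, in either fit. The median log2 fold change was 0.05 without and 0.00 with the batch, with 7 and 8 of 16 below 0. Their median standard error was 0.42 without and 0.34 with the batch, beside 0.141 and 0.102 for all genes. A shift of this list could thus be missed. Their summed CPM, Kdr included, was lower in the shared batches, by a log2 of -0.62, -0.10, and -0.34. Kdr itself went from 8.65 to 3.16, from 3.93 to 1.66, and from 5.23 to 2.11 CPM in these batches. That is a large part of a sum of 10.8 to 17.6 CPM in untreated libraries, so the sum does not speak for the other endothelial genes. Pecam1, an adhesion molecule of endothelial cells, lay between 1.24 and 1.45 CPM in untreated and between 1.26 and 1.78 CPM in Mut.oligo libraries, and Cdh5, endothelial cadherin, stayed under 0.577 CPM or at it in all 8.

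Tagln and Acta2 code for actin-associated proteins of contractile cells. Tagln was at 5.59, 1.26, 1.23, and 1.84 CPM in untreated and at 1.69, 0.182, 0.501, and 0.313 CPM in Mut.oligo libraries, the lowest of which rests on 9 counts. Here replicate 1 was the highest of both groups, so the groups overlapped although every Mut.oligo library was lower than the untreated one of its batch. The log2 fold change was -1.90 ± 0.63 without (adjusted p = 0.999) and -2.17 ± 0.22 with the batch (adjusted p = 0.00217). Without untreated replicate 1, Tagln was not called with the batch. Acta2 was at 0.817 to 3.41 CPM in untreated and 0.223 to 0.747 CPM in Mut.oligo libraries (log2 fold change with the batch -1.59 ± 0.33, adjusted p = 0.244).

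The remaining called genes belong to cell division or to the extracellular matrix. Ccnd1, cyclin D1, which drives cells through G1, showed the tightest groups, with 39.2, 39.6, 38.4, and 37.2 CPM in untreated and 26.7, 25.8, 24.8, and 27.7 CPM in Mut.oligo libraries. Its log2 fold change was -0.56 ± 0.09 without (adjusted p = 0.204) and -0.52 ± 0.07 with the batch (adjusted p = 0.0254). Kif23, a kinesin of the central spindle, lay at 4.29 ± 0.205 CPM in untreated and at 2.67 ± 0.216 CPM in Mut.oligo libraries (mean ± SD, n = 4 each), or -0.69 ± 0.09 on the log2 scale with the batch (adjusted p = 0.0254, edgeR). Dlgap5, a spindle protein, lay at 2.64 ± 0.202 and 1.26 ± 0.172 CPM (-0.96 ± 0.13, adjusted p = 0.0254, edgeR), and Pclaf, a partner of the replication clamp PCNA, at 6.998 ± 0.664 and 3.85 ± 0.464 CPM (-0.72 ± 0.11, adjusted p = 0.0315, edgeR). For these 4 genes, no Mut.oligo library reached an untreated one. Col4a6, a basement membrane collagen chain on the X chromosome, and Ccn1, a matrix protein induced by the regulator YAP, varied more among the untreated libraries than between the groups. Col4a6 was at 6.24, 3.62, 4.19, and 4.28 CPM in untreated and 4.15, 2.49, 3.35, and 2.72 CPM in Mut.oligo libraries (-0.58 ± 0.08 with the batch, adjusted p = 0.029). Ccn1 was at 12.2, 4.08, 9.55, and 9.46 CPM against 7.66, 2.98, 4.74, and 6.26 CPM (-0.62 ± 0.09 with the batch, adjusted p = 0.0315). The groups overlapped for both, and the untreated library was the higher one in each shared batch.

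**Figure D2:**
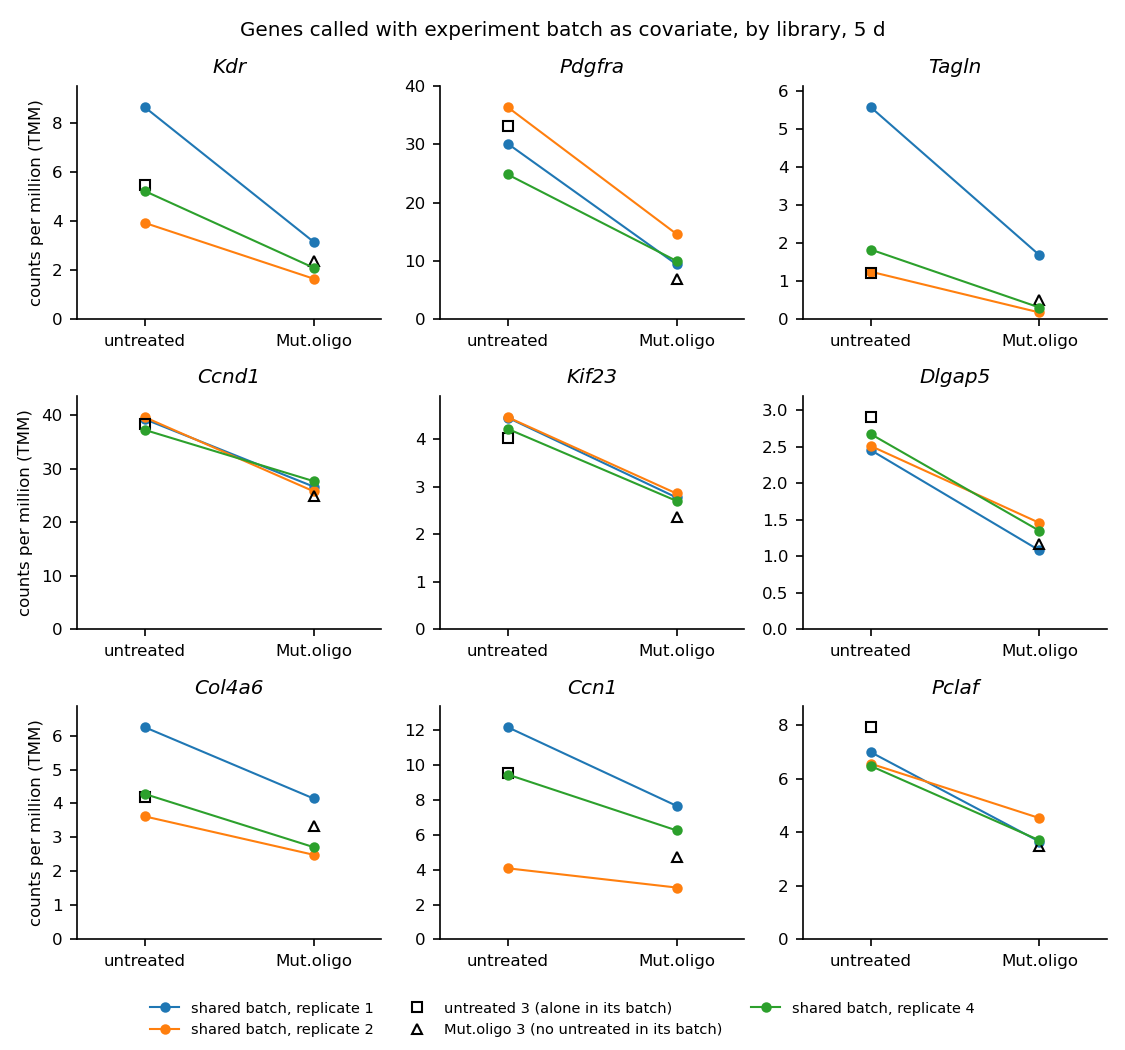
CPM (y axis, from 0) of the 9 genes called with the experiment batch, in each untreated and Mut.oligo library at 5 d. Lines join the libraries of a shared batch, and open symbols are the libraries numbered 3, which share no batch; every line falls, from 8.65 to 3.16 CPM for Kdr in the batch of replicate 1.

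When each of the 8 libraries was left out in turn from the fit with the batch, 9 genes remained called without untreated replicate 3, the same 9 as with it, and 2 to 4 genes were called without any of the other 7. Pdgfra and Kdr were called in all 8 of these fits and Tagln in 7, while each of the other 6 genes was called in 1. With only the 8 libraries in the fit, 1 gene (Ccnd1) was called without and 2 genes (Pdgfra, Kdr) with the batch.

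Genes of mitosis and the G2 phase were lower as a group. All 30 listed genes passed the filter on low counts, and all 30 had a log2 fold change below 0 in both fits, as 48.9% of all genes did without and 50.4% with the batch (51.1% and 49.6% were above 0). At an unadjusted p under 0.05, 27 of 30 were lower without and 29 of 30 with the batch, beside 1.98% and 2.82% of all genes, and 0 were higher. The median log2 fold change was -0.54 without and -0.50 with the batch, beside 0.00 for all genes in either fit. With the batch, edgeR called 2 of them, Kif23 and Dlgap5, and DESeq2 called 5, these and Top2a, Cenpa, and Pbk. In 20 of 30, no Mut.oligo library reached an untreated one (1.31% of all genes), and 29 of 30 were lower in all 3 shared batches (15.2% of all genes). The summed CPM of the 30 genes ranged from 217 to 241 in untreated and from 128 to 185 in Mut.oligo libraries. The study itself lists Top2a, Cenpa, Kif22, Kif23, Melk, Dlgap5, Cdc20, Aurkb, and Ccna2 as lower in these samples. The counts of this list are therefore not independent of that choice. Without a covariate, the count of 27 was 17 without Mut.oligo replicate 1 or without Mut.oligo replicate 3; with the batch, the counts stayed between 21 and 29.

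Among these genes, Top2a, the topoisomerase that untangles chromosomes, lay at 30.2, 32.5, 30.01, and 30.04 CPM in untreated and at 20.1, 24.9, 14.4, and 22.4 CPM in Mut.oligo libraries. Untreated libraries thus lay within a narrow range, while Mut.oligo replicate 3 was the lowest of all. The log2 fold change was -0.58 ± 0.21 without and -0.50 ± 0.11 with the batch (adjusted p = 0.999 and 0.3, edgeR). Mki67, coding for the proliferation marker Ki-67, was at 23.6, 27.2, 21.5, and 27.7 CPM in untreated and at 16.5, 18.9, 10.5, and 14.1 CPM in Mut.oligo libraries (-0.71 ± 0.18 with the batch, adjusted p = 0.547). Cdk1, the kinase that starts mitosis, and Ccna2, its cyclin A2 partner, had log2 fold changes of -0.48 ± 0.10 and -0.50 ± 0.09 with the batch (adjusted p = 0.24 and 0.175). Cenpa, the centromeric histone H3 variant, had one of -0.64 ± 0.12 (adjusted p = 0.179).

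Promoters of the mitosis genes share short motifs. RefSeq promoter windows, 250 bases before to 50 bases after a gene's start in GRCm38.p6, were used for 24 of the 30 genes (25 windows). The windows used leave out a chromosome, and shares of all windows refer to those used. The letters CCAAT (either strand) were found in 20 of 25 windows (80%), beside 37.4% of all 32851 windows, and TTTGAA (either strand), the core of the cell cycle genes homology region, in 19 (76%), beside 17.9% of all; 17 (68%) held both, beside 6.95% of all. In the 16972 windows of tested genes, the shares were 37.2% for CCAAT, 12.5% for TTTGAA, and 5.01% for both. Neither motif contains the other. Of the 23 windows of the S phase genes, 16 (69.6%) held CCAAT and 3 (13%) TTTGAA. These are matches of letters and no proof of binding. The windows of Kif23 and Top2a are shown because they belong to a called and to a highly expressed member of the list; both motifs are in capitals.
Kif23, chr9:61946750-61947049, minus strand: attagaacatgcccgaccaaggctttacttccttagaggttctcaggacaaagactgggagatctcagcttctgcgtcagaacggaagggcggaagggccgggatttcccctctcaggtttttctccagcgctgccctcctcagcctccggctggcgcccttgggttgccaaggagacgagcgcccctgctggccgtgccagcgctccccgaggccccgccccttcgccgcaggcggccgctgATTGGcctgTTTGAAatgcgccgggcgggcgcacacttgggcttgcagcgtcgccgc
Top2a, chr11:99024140-99024439, minus strand: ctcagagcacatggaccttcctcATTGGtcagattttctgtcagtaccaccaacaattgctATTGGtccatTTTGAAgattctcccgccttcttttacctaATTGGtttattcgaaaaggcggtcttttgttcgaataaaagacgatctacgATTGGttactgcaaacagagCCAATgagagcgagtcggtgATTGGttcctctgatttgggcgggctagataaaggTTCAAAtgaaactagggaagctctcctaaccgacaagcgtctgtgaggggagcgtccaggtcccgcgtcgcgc

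S phase and DNA replication genes were lower to a smaller extent. Of 25 tested, 11 had an unadjusted p under 0.05 without and 14 with the batch, all lower, beside 1.98% and 2.82% of all genes, and the median log2 fold change was -0.25 without and -0.22 with the batch. With the batch, edgeR called Pclaf, and DESeq2 called Pclaf and Cdc6. Cdc6, which loads the replicative helicase, lay at 1.67 ± 0.121 CPM in untreated and 0.871 ± 0.0664 CPM in Mut.oligo libraries (mean ± SD, n = 4 each), with a log2 fold change of -0.89 ± 0.15 and an adjusted p of 0.0798 with the batch (edgeR). The helicase subunits Mcm2 to Mcm6 had smaller log2 fold changes, from -0.29 (Mcm5) to -0.18 (Mcm3) with the batch. The 11 became 6 without Mut.oligo replicate 3 or untreated replicate 3, and 7 without Mut.oligo replicates 1 or 4 or untreated replicate 2. Of the 15 G1 cyclins, cyclin-dependent kinases (CDKs), and CDK inhibitors, 4 were lower at an unadjusted p under 0.05 in each fit, beside the same shares of all genes, with a median of -0.12 without and -0.11 with the batch. Besides Ccnd1, these included Cdk6, its kinase partner, at 8.20 to 10.7 CPM in untreated and 5.19 to 7.61 CPM in Mut.oligo libraries (-0.56 ± 0.11 with the batch, adjusted p = 0.24), and the inhibitor Cdkn2c (-0.41 ± 0.12, adjusted p = 0.702). Ccnd2, a more abundant cyclin of the same class, was at 265 CPM in untreated and 238 CPM in Mut.oligo libraries on average.

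Genes of the oligodendrocyte lineage were lower in part; with the batch, edgeR called Pdgfra, and DESeq2 called Pdgfra and Cspg4. Of 18 listed genes, Mog and Mag were under the filter, and of the 16 tested, 6 were lower at an unadjusted p under 0.05 without and 8 with the batch, beside 1.98% and 2.82% of all genes, with a median log2 fold change of -0.48 and -0.34. Olig2 lay at 32.1, 29.5, 27.8, and 27.2 CPM in untreated and at 20.2, 23.1, 19.2, and 21.6 CPM in Mut.oligo libraries; its adjusted p with the batch was 0.0462, but its log2 fold change of -0.45 ± 0.07 missed the size threshold. Olig1 was at 76.1 to 96.5 and 63.7 to 66.8 CPM (-0.37 ± 0.08, adjusted p = 0.346). Cspg4, the NG2 proteoglycan of OPCs and pericytes, was at 7.17 to 8.12 and 3.80 to 6.29 CPM (-0.57 ± 0.11, adjusted p = 0.175), and Sox10 at 2.19 to 3.78 and 1.15 to 2.55 CPM (-0.84 ± 0.20, adjusted p = 0.395). For Olig1, Olig2, and Cspg4, but not for Sox10, the groups did not overlap. Mbp, which codes for a myelin protein, had a log2 fold change near 0 and was at 20.5 to 23.4 CPM in untreated and 19.6 to 23.9 CPM in Mut.oligo libraries. The precursor genes and the mitosis genes were lower in the same libraries; the part of one in the other was not tested. The count of 6 was 3 without Mut.oligo replicate 3, untreated replicate 1, or untreated replicate 3, 2 without Mut.oligo replicate 4, and 7 or 8 of 16 in each such fit with the batch.

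In the smooth muscle and pericyte list, 4 of 12 tested genes were lower at an unadjusted p under 0.05 without and 5 with the batch: Tagln, Acta2, Cspg4, and the adhesion protein gene Vtn in both fits, and Myl9, a myosin light chain gene, with the batch only. For this list and those that follow, the shares of all genes lower at this limit were 1.98% without and 2.82% with the batch. The median log2 fold change was -0.29 without and -0.41 with the batch. Without untreated replicate 1, where Tagln and Acta2 were highest, the count was 0 without a covariate, and it was 2 without Mut.oligo replicate 3. Pdgfrb, the pericyte receptor, was at 6.55 to 12.6 CPM in untreated and 6.97 to 9.18 CPM in Mut.oligo libraries, so the ranges overlapped. Of the fibroblast and meningeal genes, 0 of 12 were lower without and 4 with the batch, and of the basement membrane genes 1 of 17 and 4, with medians between -0.28 and -0.07. Of the BMP ligands and Id genes, which respond to BMP signals, 2 of 15 were lower without (Bmp6 and Id3) and 3 with the batch. Id3 was at 7.61 to 11.02 CPM in untreated and 4.78 to 6.66 CPM in Mut.oligo libraries (-0.64 ± 0.10 with the batch, adjusted p = 0.0616). Of the CCN family and YAP target genes, 2 of 12 and 3 were lower, Ccn1 and its relative Ccn2 in both fits.

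For astrocytes and radial glia, the counts at an unadjusted p under 0.05 depended on the batch, while most members were below 0 in both fits. Of all genes, 1.98% were lower at this limit without and 2.82% with the batch. Of 15 astrocyte genes, 1 was lower at an unadjusted p under 0.05 without and 6 with the batch, and the median log2 fold change was -0.25 and -0.11. All 15 were below 0 in both fits (48.9% and 50.4% of all genes). In all 3 shared batches, 10 of 15 were lower (15.2% of all genes). Gfap, a filament protein gene of astrocytes, ranged from 54.3 to 501 CPM in untreated and from 32.4 to 399 CPM in Mut.oligo libraries, a spread that lay between the batches. Of 15 radial glia and progenitor genes, 2 were lower without (Sox2 and Nes) and 5 with the batch, with medians of -0.25 and -0.15. Of these 15, 14 were below 0 without and 15 with the batch, and 9 were lower in all 3 shared batches. Gsx1, a homeobox gene of ventral forebrain progenitors, was among the 10 genes of smallest p whose groups did not overlap, at 0.890 to 1.00 and 0.275 to 0.425 CPM (-1.46 ± 0.36 without a covariate, adjusted p = 0.999). Of 16 microglia genes, 1 (Sall1) was lower in both fits, and of 11 genes of disease-associated microglia, 1 was lower in each, Igf1 without and Cd9 with the batch. The microglia genes had a median of -0.16 without, with 16 of 16 below 0, and -0.13 with the batch, with 12 of 16 below 0.

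**Figure D3:**
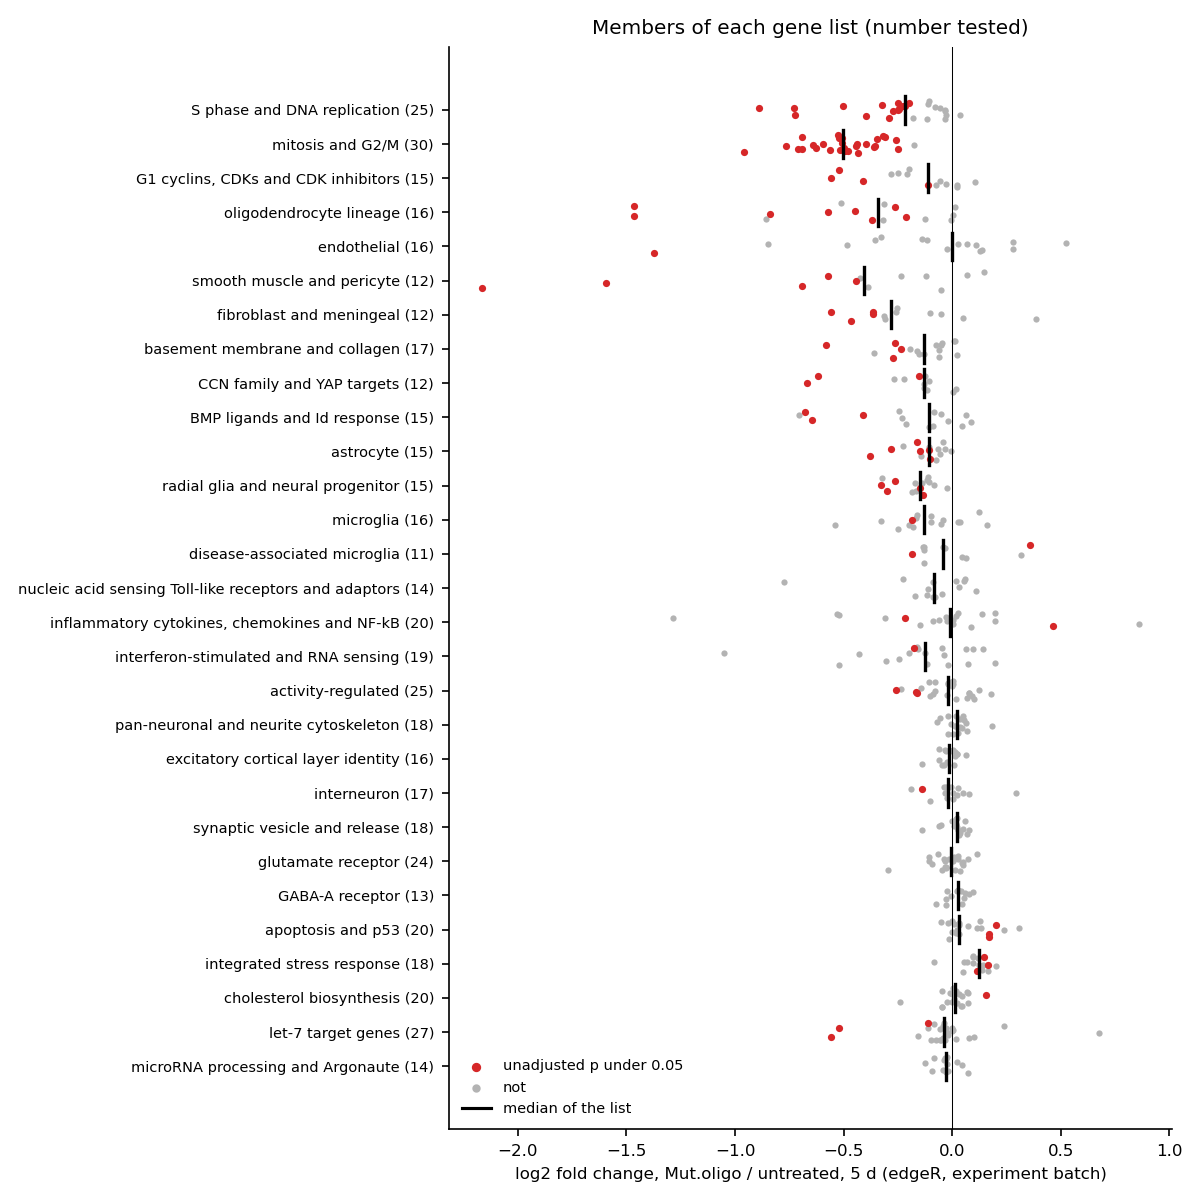
Log2 fold change of Mut.oligo to untreated at 5 d, with the experiment batch (x axis), for each tested member of 29 gene lists (rows, number tested in brackets); red points have an unadjusted p under 0.05 and black bars are medians. Mitosis genes lie to the left of 0 with a median of -0.50, whereas the neuronal and synaptic lists center on 0.

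Most neuronal gene lists stayed near 0. Of the pan-neuronal, cortical layer, synaptic vesicle, glutamate receptor, and GABA-A receptor genes (18, 16, 18, 24, and 13 tested), 0 had an unadjusted p under 0.05 in either fit, and their medians were between 0.01 and 0.11 without and between -0.02 and 0.02 with the batch. Without a covariate, 17 of 18 pan-neuronal and 17 of 18 synaptic vesicle genes were above 0 (51.1% of all genes). With the batch, 13 and 14 were (49.6% of all genes). In all 3 shared batches, 5 and 8 were higher (13.7% of all genes). Slc17a7, the vesicular glutamate transporter of cortical neurons, was at 84.9 to 142 CPM in untreated and 107 to 133 CPM in Mut.oligo libraries, and Gad1, which makes GABA, at 282 to 389 and 276 to 295 CPM. Of 17 interneuron genes, 0 were lower without and 1 (Dlx2, a progenitor transcription factor) with the batch, beside 1.98% and 2.82% of all genes; their median was -0.14 without, with 14 of 17 below 0, and -0.02 with the batch. Of 25 activity-regulated genes, 0 were lower without and 3 with the batch, Fos among them (-0.26 ± 0.07, adjusted p = 0.6), with medians of -0.14, 17 of 25 being below 0, and -0.02. Of 14 genes of nucleic acid-sensing Toll-like receptors and their adaptors, 0 had an unadjusted p under 0.05 in either fit. Tlr7 itself was at 1.13 CPM in untreated and 0.881 CPM in Mut.oligo libraries on average (-0.23 ± 0.23 with the batch, adjusted p = 1), and Myd88, its adaptor, at 4.56 and 4.83 CPM. Of 20 inflammatory genes, 1 was lower in both fits (Il18) and 1 was higher with the batch only (Cxcl10, 0.46 ± 0.11, adjusted p = 0.435), and of 19 interferon-stimulated genes, 0 and 1 were lower. The median of the interferon-stimulated genes was -0.33 without, with 16 of 19 below 0, and -0.13 with the batch, with 14 of 19 below 0. Their median standard error was 0.36 and 0.26.

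No gene passed the threshold in the other direction, in either fit and with either tool. The groups did not overlap for 139 genes (0.719%) higher with Mut.oligo, beside 254 (1.31%) lower. Without a covariate, the smallest unadjusted p among higher genes belonged to Slc16a6, a monocarboxylate transporter gene, which lay at 46.1, 47.4, 51.9, and 47.4 CPM in untreated and at 59.9, 61.5, 63.5, and 63.2 CPM in Mut.oligo libraries. The groups did not overlap, and the log2 fold change was 0.36 ± 0.09 without and 0.37 ± 0.08 with the batch (adjusted p = 0.999 and 0.244, edgeR). A small RNA gene, Gm25540, lies within its span. Next came 4 transcripts known only by clone or model names, all under 1.28 CPM or at it; Gm10617, for one, had 0 to 3 counts in untreated and 5 to 16 counts in Mut.oligo libraries. With the batch, Slc16a9, another transporter of that family, Arrdc3, an arrestin-domain protein gene, and Hrk, which codes for a pro-apoptotic BH3-only protein of neurons, had log2 fold changes of 0.37, 0.27, and 0.20 (adjusted p = 0.244, 0.346, and 0.355). Of 20 apoptosis and p53 genes, 1 was higher at an unadjusted p under 0.05 without (Bcl2l11) and 3 with the batch (Bcl2l11, Bbc3, and Hrk, which all code for BH3-only proteins), and of 18 genes of the integrated stress response, 0 and 3 were higher (Chac1, Slc7a5, and Herpud1), beside 0.812% and 1.38% of all genes. Of 20 genes of cholesterol biosynthesis, 0 and 1 were higher, with medians of 0.19 and 0.01. Of the stress response genes, 14 of 18 were above 0 without and 17 with the batch, with medians of 0.07 and 0.12. Of the apoptosis and p53 genes, 12 of 20 and 16 were above 0, with medians of 0.05 and 0.03. Of the cholesterol genes, 19 of 20 and 13 were. Of all genes, 51.1% and 49.6% were above 0. In all 3 shared batches, 9 stress response, 10 apoptosis, and 7 cholesterol genes were higher (13.7% of all genes).

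The 16 genes that the study lists as lower after Mut.oligo at 5 d were chosen on these samples and are no independent evidence; 15 of 16 had an unadjusted p under 0.05 without and 16 with the batch, with medians of -0.68 and -0.67. At the adjusted threshold, edgeR called 0 of them without and 6 with the batch, and DESeq2 with the batch called 8. Each of the 16 is also a member of a gene list above, so the counts of those lists are not independent of the study's choice. The 1 gene it lists as higher, Spp1, coding for osteopontin, was at 10.1, 3.41, 3.23, and 6.502 CPM in untreated and at 12.2, 3.93, 10.9, and 9.48 CPM in Mut.oligo libraries (0.36 ± 0.11 with the batch, adjusted p = 0.736). Its groups overlapped.

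Since bases 2 to 8 of Mut.oligo read as in let-7b, matches to this seed were sought in the longest annotated 3′ UTR of 15546 tested genes (GENCODE M21, GRCm38). The site for bases 2 to 8 reads CTACCTC, and with an A after it, it counts as an 8mer. The 562 genes with an 8mer had a median log2 fold change of -0.01 without and 0.00 with the batch, and the 12978 genes without any site had medians of 0.00 and 0.00. With the batch, 2.31% of the former and 3.22% of the latter were lower at an unadjusted p under 0.05. UTR lengths differed, with medians of 2464.5 and 981 bases; between the quartiles of the 8mer genes, the share was 2.5% of 280 genes with an 8mer and 2.99% of 4281 genes without a site. Of the 9 genes called with the batch, 1, Ccnd1, held a site, a 7mer of bases 2 to 7 followed by an A. Of 27 known let-7 target genes tested, 2 were lower at an unadjusted p under 0.05 without (Ccnd1 and Cdk6) and 3 with the batch, and the median log2 fold change was -0.03 and -0.04. Of 14 genes of miRNA processing and Argonaute proteins, 0 passed in either fit. The sites of Ccnd1 and Cdk6 are shown beside the first site of Hmga2 and of Lin28b, which hold 4 matches to bases 2 to 8 each; capitals mark the match, and positions are those of the seed match in GRCm38.
Ccnd1, chr7:144930599-144930604, minus strand: gttcacaaTACCTCAtgtatca
Cdk6, chr5:3521639-3521644, plus strand: agtgagtgTACCTCAgataggt
Hmga2, chr10:120364225-120364231, minus strand: ttcaatttCTACCTCAgcatcag
Lin28b, chr10:45381023-45381029, minus strand: cgggaagtCTACCTCAtgcaagc
Hmga2 and Lin28b code for a chromatin protein and an RNA-binding protein of progenitors. Their log2 fold changes were 0.17 and -0.12 without and -0.16 and 0.00 with the batch.

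The same comparison was made at 6 h, where only some untreated and Mut.oligo libraries shared a batch. No batch of the labels held libraries of both time points. A difference between the time points thus cannot be told apart from one between their batches. Mut.oligo at 6 h was set against untreated in a fit of all 32 libraries, 20425 genes. With the batch, 6 genes (0.0294%) were called lower and 0 higher at 6 h, and 0 and 0 without (edgeR). Effects of Mut.oligo at 5 d and at 6 h were compared by an interaction term in the same fits. Without a covariate, 0 genes were called lower and 0 higher (smallest adjusted p = 0.857, edgeR), with 495 (2.42%) lower and 638 (3.12%) higher at an unadjusted p under 0.05. With the batch, 2 genes (0.00979%) were called, Pdgfra and Kdr, with 443 (2.17%) lower and 467 (2.29%) higher at an unadjusted p under 0.05. Pdgfra was at 65.1 ± 21.2 CPM in untreated and 59.8 ± 28.3 CPM in Mut.oligo-exposed neurons at 6 h (mean ± SD, n = 4 each; libraries of the 2 time points were scaled separately), and its effect at 5 d was lower than that at 6 h by a log2 of -1.41 ± 0.20 (adjusted p = 0.00688, edgeR with the batch). Kdr was at 4.13 ± 2.50 and 4.09 ± 2.09 CPM at 6 h, and the difference of effects was -1.26 ± 0.18 (adjusted p = 0.00688, edgeR with the batch). Of the 30 mitosis genes, 0 were lower at 6 h at an unadjusted p under 0.05 in either fit, beside 3.78% of all genes without and 3.14% with the batch. The interaction was lower at an unadjusted p under 0.05 for 4 of them without and 9 with the batch, with medians of -0.39 and -0.39. Other lists had members beyond this limit as well. Of 25 activity-regulated genes, 1 was higher in the interaction without and 12 with the batch, beside 3.12% and 2.29% of all genes. With the batch, 6 of 12 smooth muscle, 5 of 12 fibroblast, and 6 of 17 basement membrane genes were lower (2.17% of all genes). Without it, the counts were 5, 1, and 2. For the interaction, DESeq2 with the batch called Pdgfra and Kdr lower and Nr4a1, Cacng5, Npas4, and Gm43488 higher. Top2a was at 93.6 ± 20.97 CPM in untreated neurons at 6 h and at 30.7 ± 1.18 CPM at 5 d.

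**Figure D4:**
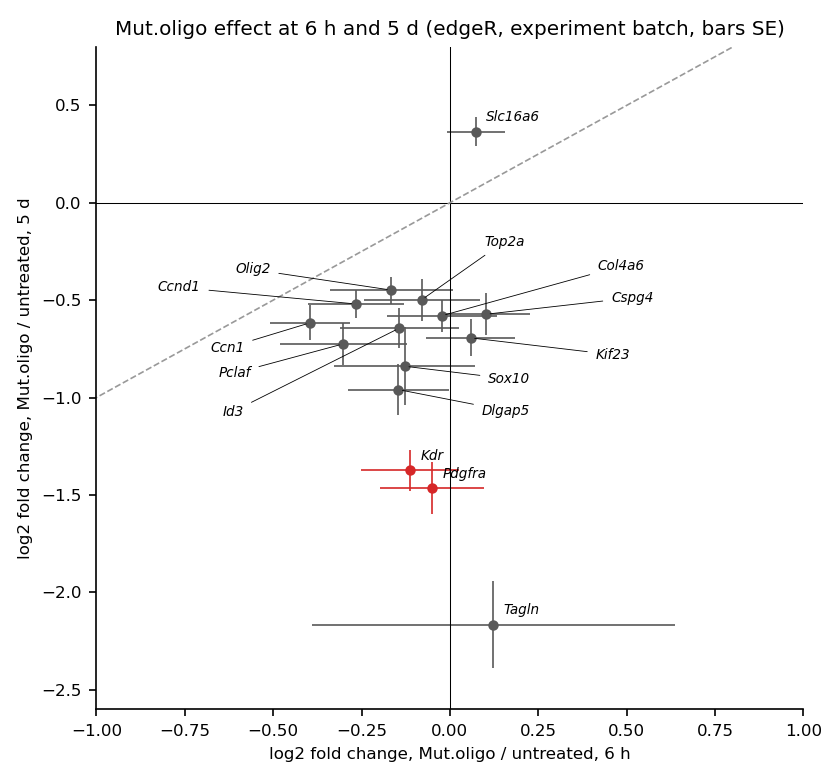
Log2 fold change of Mut.oligo to untreated at 6 h (x axis) and 5 d (y axis), with the experiment batch and standard errors, for the 9 called genes and 6 others. The dashed line marks equal effects; Pdgfra and Kdr (red), at -0.05 and -0.11 at 6 h, are the genes whose effects differed between the time points at an adjusted p of 0.00688.

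Mut.oligo was also set against the other oligoribonucleotides at the same dose and time, as 2 contrasts in the same fits over the 16 libraries of 5 d. Untreated libraries enter these by the shared estimate of the spread and, with the batch, through the batch terms, since Mut.oligo replicate 2 shares its batch with an untreated library alone. Against miR-124-5p, 0 genes were called lower and 0 higher without and with the batch (edgeR; at an unadjusted p under 0.05, 198 (1.02%) lower and 127 (0.657%) higher without and 255 (1.32%) lower and 287 (1.48%) higher with the batch), and DESeq2 called 0 and 0. Against miR-92a-1-5p, 0 were called in either direction without a covariate (158 (0.817%) lower and 225 (1.16%) higher at an unadjusted p under 0.05), and with the batch 0 were lower and 2 (0.0103%), Olig2 and Gdf15, higher with Mut.oligo (777 (4.02%) lower and 938 (4.85%) higher at an unadjusted p under 0.05). Olig2 was at 21.03 ± 1.67 CPM after Mut.oligo and 15.6 ± 5.04 CPM after miR-92a-1-5p (mean ± SD, n = 4 each), a log2 difference of 0.62 ± 0.07 (adjusted p = 0.018, edgeR with the batch). Gdf15, a stress-induced cytokine gene named here after its values were seen, was at 2.58 ± 1.18 and 1.67 ± 0.393 CPM, with 0.85 ± 0.10 (adjusted p = 0.0232, edgeR with the batch). Of the 30 mitosis genes, 14 were higher with Mut.oligo than with miR-92a-1-5p at an unadjusted p under 0.05 with the batch (4.85% of all genes) and 0 without, with medians of 0.26 and 0.18. For Pdgfra, the log2 difference of Mut.oligo to miR-92a-1-5p was 0.11 ± 0.14 and that to miR-124-5p 0.07 ± 0.14 with the batch, and for Kdr they were 0.09 ± 0.11 and -0.36 ± 0.11 (adjusted p = 0.777 and 0.998 for Pdgfra and 0.782 and 0.998 for Kdr, edgeR). Group means of Pdgfra were 10.3 ± 3.20 CPM after Mut.oligo, 13.4 ± 11.6 CPM after miR-92a-1-5p, and 12.4 ± 6.38 CPM after miR-124-5p, beside 31.1 ± 4.91 CPM untreated. All comparisons to untreated share the same 4 untreated libraries, and the median log2 fold changes of the mitosis genes with the batch, -0.50 after Mut.oligo, -0.57 after miR-124-5p, and -0.78 after the other miRNA, are given side by side only.

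**Figure D5:**
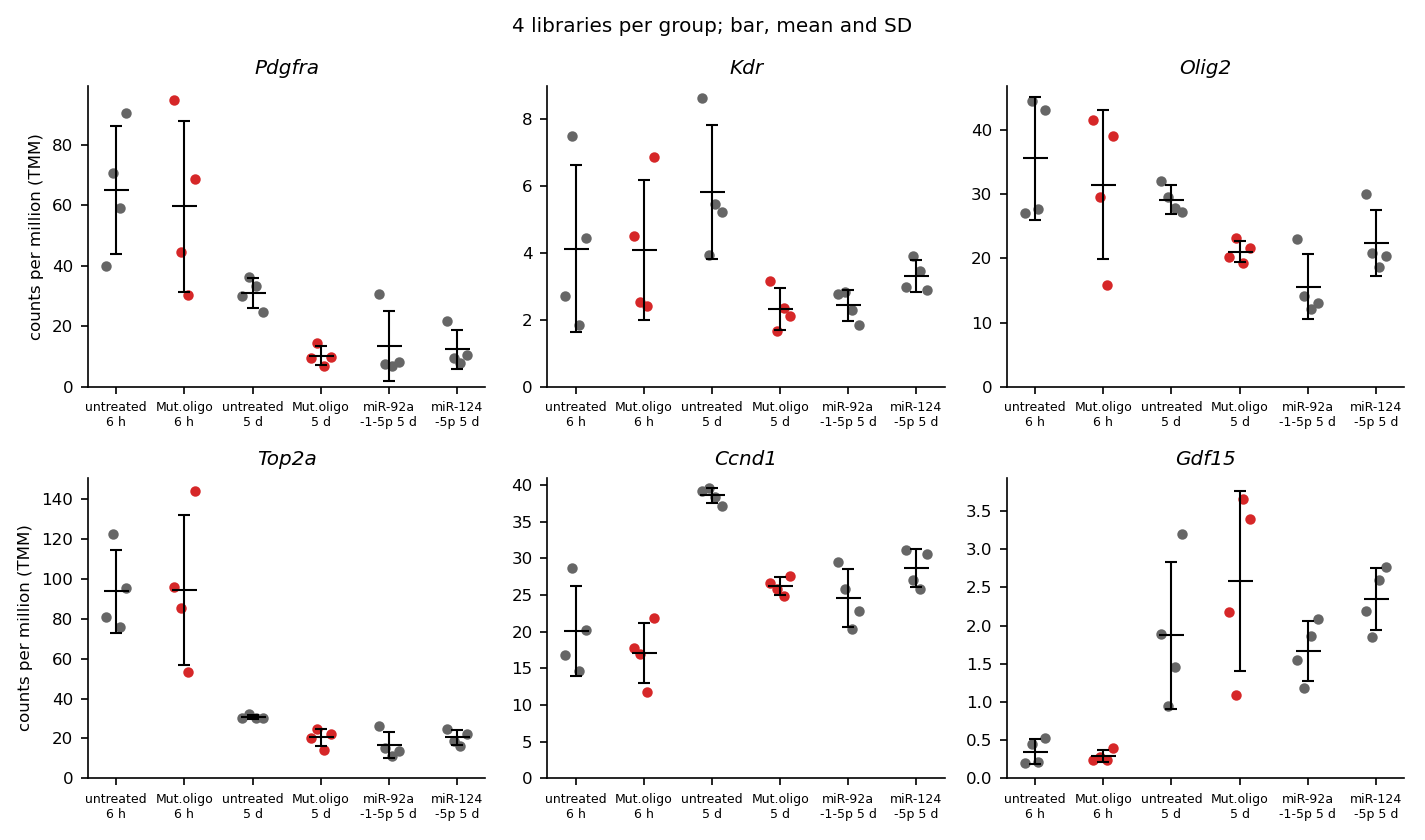
CPM (y axis, from 0) of Pdgfra, Kdr, Olig2, Top2a, Ccnd1, and Gdf15 in each library of 6 groups, with mean and SD bars (n = 4 per group); Mut.oligo is red. At 5 d, Pdgfra lies at 31.1 CPM in untreated neurons and between 10.3 and 13.4 CPM on average after each oligoribonucleotide, while at 6 h the 2 groups overlap.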

How the data were processed

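RNA of cortical neurons was sequenced as stranded mRNA libraries, 4 per group and time point. Per the labels and the methods, the authors mapped the reads with STAR to GRCm38, assigned them to exons strand-specifically with featureCounts, and deposited raw counts of 49671 genes without normalization, of which 49412 matched GENCODE M21 (259 did not). Genes reaching 5 counts in 3 or more libraries were fitted with edgeR 4.0.16 (R 4.3.3, TMM, quasi-likelihood test, Benjamini-Hochberg adjustment) over all 16 libraries of 5 d, without a covariate, since the methods name none. Alternatives were the experiment batch, the replicate number, DESeq2 1.42.0 with and without batch, RLE scaling, other filters, no minimum fold change, the 8 libraries alone, and leaving out each replicate; the scripts were tested on simulated data. Within-batch differences use 1 added count. The paired check, correlations of deviations from the group means, gave 0.53, 0.78, and 0.22 for the 3 pairs that the labels place in one batch; of the other pairs, untreated 3 with Mut.oligo 1 and 4 reached 0.38 and 0.27. Named genes were those called with the batch, the 10 smallest p among non-overlapping genes, the 5 smallest p among higher genes in each fit, genes the study lists, list members, and cell type markers; further list members (such as Tlr7, Fos, and Mcm5) were named after their values were seen. Members, lists, and rules were chosen with earlier results of these data known. No 2 libraries of a group were identical. The labels place each replicate of a group in a different experiment batch. No source used here says that replicates came from separate cultures, so p-values measure the spread between these libraries.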

Additional observations from a re-analysis of the deposited data

Results flagged for a closer look

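In 96 groups of 4 libraries (48 genes in untreated and Mut.oligo libraries of 5 d), 3 held a library far from its group by Dixon's criterion, where chance gives about 1 in 20. Untreated replicate 1 stood apart for Tagln, at 5.59 CPM beside 1.23 to 1.84 CPM in the others, and for Acta2, at 3.41 CPM beside 0.817 to 1.09 CPM. Untreated replicate 2 stood apart for Top2a, at 32.5 CPM beside 30.01 to 30.2 CPM.

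The effect of Mut.oligo differed between 5 d and 6 h for Pdgfra, by a log2 of -1.41, and for Kdr, by -1.26, in the interaction test with the experiment batch (adjusted p = 0.00688 for both, edgeR); without a covariate the adjusted p was 0.857 for each. No Mut.oligo library of 5 d reached the lowest untreated one for either gene. The time points shared no batch, so time and batch cannot be told apart here.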

How the results depend on the processing

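For Mut.oligo against untreated at 5 d, 0 genes were called lower without a covariate in edgeR, and also 0 with RLE scaling, without a filter, at a mean of at least 1 CPM, without a minimum fold change, and without each replicate. There were 9 with the experiment batch, 3 with DESeq2, 17 with DESeq2 and the batch, 1 with the 8 libraries alone, and 2 with these and the batch. Leaving out each replicate with the batch gave 2 to 9. The count of genes called higher was 0 in all these settings. The difference between 5 d and 6 h gave 2 genes lower with the batch, and 2 lower and 4 higher with DESeq2 and the batch. Against miR-92a-1-5p, 2 genes were higher with the batch, and 11 higher and 2 lower with DESeq2 and the batch. The cause of these differences was not tested. The fit with the replicate number as a block (replicate block) called 0 genes in each comparison. It joins libraries by number and not by batch. Untreated and Mut.oligo libraries numbered 3 share no batch at 5 d, and at 6 h none of equal number do. The miRNA libraries numbered 1 and 2 at 5 d share none with the untreated and Mut.oligo libraries of their number. For 48 genes chosen by their p, their call, or the study's list, 0 of 1193 log2 fold changes under alternatives changed sign, and 67 passed an adjusted p of 0.05 that they missed without a covariate. Genes given for their level or as let-7 targets were not among these 48, and 4 of them had opposite signs without and with the batch, at unadjusted p above 0.05: Hmga2 (0.17 and -0.16), Slc17a7 (0.04 and -0.06), Gad1 (-0.14 and 0.00), and Mbp (-0.01 and 0.01). The list counts without each library were added after the data were seen. Precision rests on 4 libraries a group: with the batch, 7 residual degrees of freedom remain, and 2 with the 8 libraries alone. Small differences of genes near the floor were not detectable at this depth.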
